A study of Mus musculus with 8 samples.

Results

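Genes of antigen presentation, 10 in all, were followed across the arrays of a hippocampal expression series, 6 of MHC class I and 4 of MHC class II. The class I genes were B2m, H2-D1, H2-K1, Tap1, Psmb8 and Psmb9, and the class II genes were Cd74, H2-Aa, H2-Ab1 and H2-Eb1. They were chosen by gene symbol and role. All probe sets annotated to one of these symbols alone were taken, 31 of the 45037 probe sets tested, 22 for class I and 9 for class II. Each gene was read by its brightest probe set, that is the one of highest 8-array mean, as were all 18193 genes with a symbol, and its other probe sets are described with it.

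The samples were hippocampal RNA of female mice, hybridised to 8 one-colour Affymetrix mouse arrays. Tg6799 mice (MT, "AD mutant" here) carry transgenes of mutant human APP and human PS1, which are expressed in neurons under Thy1 promoter sequence in this line, and their littermates without the transgenes (LM) were the controls. Animals were 4 months old, an early symptomatic age, or 8 months old, a late symptomatic age, which gave 4 groups of 2 arrays, LM4m, MT4m, LM8m and MT8m. Mice of the same line and sex made up all groups, and no treatment was applied. Nothing in the labels ties the arrays of a group to different animals, so the replicate spread behind each p-value may be technical. Values are log2 expression values after RMA normalization by the authors. A difference of 1 unit is a factor of 2, and levels of different probe sets are not compared.

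MHC class I molecules stand on nearly all nucleated cells and show peptides from inside the cell to CD8 T cells. Their heavy chains (H2-D1 and H2-K1) pair with the light chain beta-2 microglobulin (B2m). The immunoproteasome subunits Psmb8 and Psmb9 take part in cutting the peptides, and Tap1 is a subunit of the pump that carries them into the endoplasmic reticulum. MHC class II molecules show peptides from endosomes to CD4 T cells and are made mainly by professional antigen-presenting cells. H2-Aa is the alpha chain and H2-Ab1 the beta chain of I-A, H2-Eb1 is the beta chain of I-E, and Cd74 is the invariant chain that guards the groove until peptide is loaded. In the healthy brain, neurons have little class I, class II lies mostly with macrophages and dendritic cells at the borders, and microglia can raise both when they are activated.

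Expression of the transgene and of plaque-associated genes was checked on each array before the comparisons. Thy1 was between 9.53 and 9.96 on the 4 LM arrays, 11.73 and 11.82 in MT4m, and 11.79 in MT8m replicate 2. On the library labelled MT8m replicate 1, Thy1 was 9.90, Cst7, a gene of microglia at plaques, 1.75, and Gfap, the astrocyte filament, 7.17, where MT8m replicate 2 had 8.03 for Cst7 and 9.80 for Gfap. For the library labelled MT8m replicate 1, Thy1 and Gfap lay inside the LM range and Cst7 below it, which went against its label. Ttr, the main product of the choroid plexus, was between 10.66 and 10.97 on all 4 MT arrays, this one included, and between 12.43 and 12.83 on the LM arrays. The genotypes here follow the sample labels, whereas the study's own gene tables carry the genotype names in reverse, so that signed differences here run opposite to theirs. Values without that library are given beside the averaged genotype and age differences of the members. Since that array stood out by genes of microglia and astrocytes, fits without it are selected on values that vary with several members, and their p-values are not independent evidence.

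In the genotype comparison, MT minus LM averaged over both ages, 5 of the 6 class I genes had higher means in MT and all 4 class II genes had lower means. The median difference was 0.45 for class I and -0.23 for class II, against -0.01 over all genes, 46.5% of which were above 0. Without the library labelled MT8m replicate 1 the medians were 0.88 and -0.01, and 2 of the 4 class II genes had lower means in MT. Without MT8m replicate 2 they were 0.09 and -0.45. Over both ages no member had MT and LM arrays that did not overlap (1.28% of all genes had, higher in MT, and 2.42% lower). None of the 10 genes passed the test across all probe sets. The smallest adjusted p of a member was 0.858 (limma, Benjamini-Hochberg over 45037 probe sets), and at an unadjusted p under 0.05 the count was also 0. Of the dimmer probe sets of members, 1 of B2m and 1 of H2-Aa had an unadjusted p under 0.05 in this contrast and are given with their genes. Over the whole array 27 probe sets passed, 0.06% of those tested, and 2595 had an unadjusted p under 0.05, 5.76%. With 2 arrays per group and the library labelled MT8m replicate 1 in the fit, the standard errors of the class I genes were between 0.15 and 0.58, so differences of these sizes could not be told from 0.

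**Figure D1:**
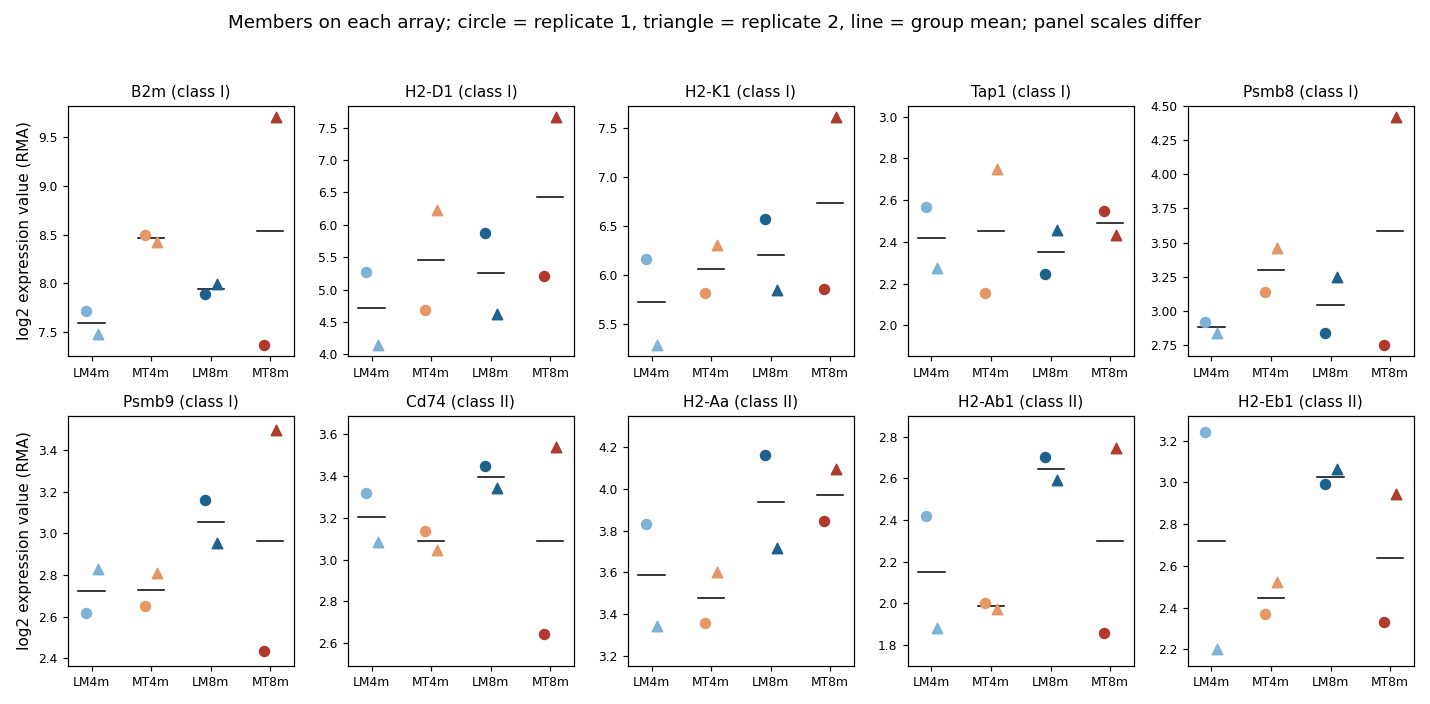
Log2 expression value (y axis) of the 10 members in the 4 groups (x axis), where circles are replicate 1, triangles replicate 2 and lines the group means, each panel on its own scale. MT8m replicate 2 is the highest array in B2m, H2-D1, H2-K1, Psmb8, Psmb9, Cd74 and H2-Ab1, and replicate 1 of the same group is the lowest in B2m, Psmb8, Psmb9, Cd74 and H2-Ab1.

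B2m, the light chain shared by all classical class I molecules, had the most even replicates outside MT8m. It read 7.71 and 7.48 in LM4m, 8.49 and 8.43 in MT4m, 7.89 and 8.00 in LM8m, and 7.37 and 9.70 in MT8m. Both MT4m arrays lay above every LM array, MT8m replicate 2 lay above all of them, and the library labelled MT8m replicate 1 was the lowest of the 8. The averaged genotype difference was 0.73 ± 0.41 (SE), a 1.66-fold higher level in MT, and did not pass (adjusted p = 0.858 by limma). A second probe set of B2m, 1452428_a_at, read 7.14 and 7.37 in LM4m, 8.38 and 8.54 in MT4m, 7.46 and 8.01 in LM8m, and 7.52 and 9.40 in MT8m, with an averaged difference of 0.97 ± 0.35 (unadjusted p = 0.0239, adjusted p = 0.853 by limma). In both probe sets MT8m replicate 2 was the highest array and the MT4m arrays came next.

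Without the library labelled MT8m replicate 1, B2m was the member that passed. Its averaged difference became 1.31 ± 0.11, 2.48-fold (adjusted p = 0.00601 by limma), and its difference at 8 months 1.76 ± 0.16, 3.38-fold (adjusted p = 0.014), now with MT8m replicate 2 as the lone array of its group. In that fit 142 probe sets passed in the averaged contrast, 0.315% of those tested, 108 of them higher in MT (0.24%), and 95 at 8 months (0.211%). On these 7 arrays the MT and LM values of B2m did not overlap over both ages, as held for 3.74% of all genes in the direction of higher in MT, whereas the values of the other 9 members overlapped. Without MT8m replicate 2 instead, the averaged difference of B2m fell to 0.14.

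The heavy chains H2-D1 and H2-K1 had wider replicate spreads than B2m in LM4m, MT4m and LM8m. H2-D1 read 5.28 and 4.15 in LM4m, 4.69 and 6.22 in MT4m, 5.87 and 4.63 in LM8m, and 5.21 and 7.66 in MT8m. The 2 arrays of each group differed by at least 1 unit, and MT and LM values overlapped at both ages. H2-K1 read 6.17 and 5.29 in LM4m, 5.82 and 6.30 in MT4m, 6.57 and 5.85 in LM8m, and 5.86 and 7.61 in MT8m. The averaged genotype differences were 0.96 ± 0.58 for H2-D1 and 0.43 ± 0.38 for H2-K1. Without the library labelled MT8m replicate 1 they were 1.58 ± 0.48 and 0.87 ± 0.27, with adjusted p-values of 0.445 and 0.462 by limma. Without MT8m replicate 2 they were 0.35 and -0.01.

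H2-D1 and H2-K1 followed each other over the arrays, with a Pearson r of 0.96 over the 8 arrays and 0.90 over the 7 without MT8m replicate 2, given as a description. Their brightest probe sets, 1425545_x_at and 1425336_x_at, carry the suffix for probes that may also bind transcripts of related genes, and the coding sequences of class I heavy chains are much alike. How far these values belong to the one gene or the other is therefore uncertain. A probe set annotated to both genes, 1424948_x_at, read 2.73 and 2.03 in LM4m, 2.50 and 2.81 in MT4m, 3.13 and 2.69 in LM8m, and 2.45 and 4.22 in MT8m, again with its highest value in MT8m replicate 2.

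**Figure D2:**
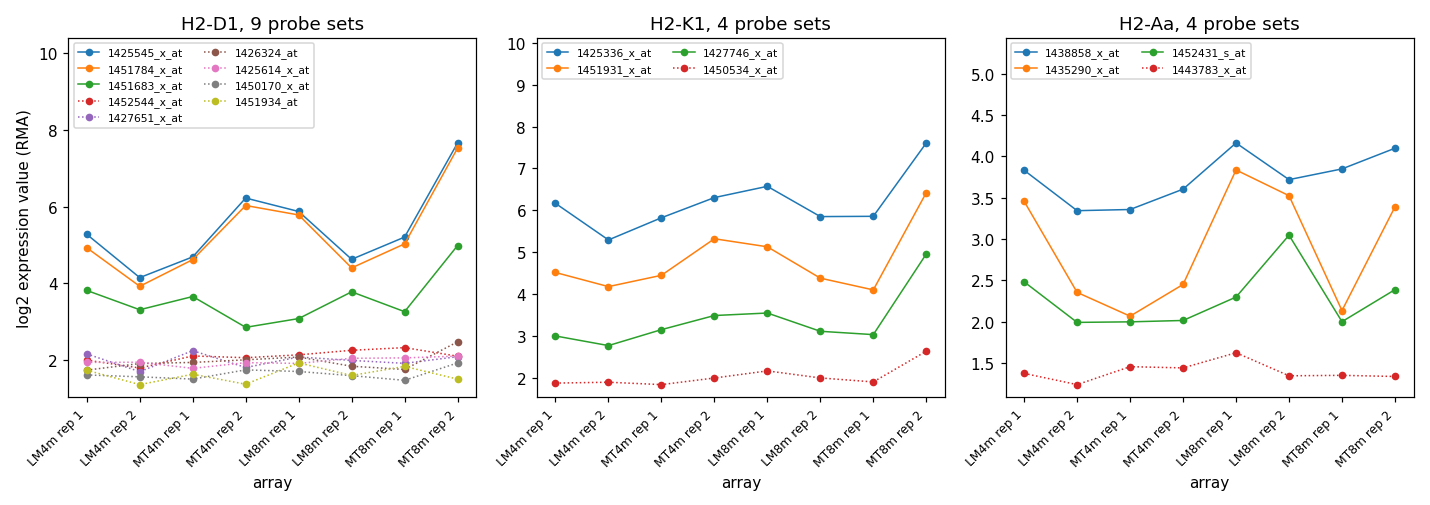
Log2 expression value (y axis) on each of the 8 arrays (x axis) of every probe set annotated to H2-D1 alone, H2-K1 alone or H2-Aa alone, with the 3 brightest of each gene as solid lines. The blue and orange probe sets of H2-D1 run together and the green one does not, and the orange probe set of H2-Aa falls on MT8m replicate 1, where the blue one does not.

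The 9 probe sets of H2-D1 did not tell 1 story. The second brightest, 1451784_x_at, ran with the first, from 3.92 in LM4m replicate 2 to 7.53 in MT8m replicate 2, and had an averaged genotype difference of 1.04 ± 0.58. The next, 1451683_x_at, read 3.81 and 3.31 in LM4m, 3.66 and 2.85 in MT4m, 3.08 and 3.78 in LM8m, and 3.26 and 4.99 in MT8m, with an averaged difference of 0.19 ± 0.37. It was low in MT4m replicate 2, where the brightest probe set was high. The other 6 probe sets of H2-D1 had means between 1.62 and 2.10, under the median of all probe set means of 2.47, and their averaged differences ran from -0.07 to 0.15. For H2-K1 the next brightest probe sets, 1451931_x_at and 1427746_x_at, had the brightest one's highest array, at 6.42 and 4.95 in MT8m replicate 2, and averaged differences of 0.52 ± 0.46 and 0.55 ± 0.36. The dimmest, 1450534_x_at, had a difference of 0.11 ± 0.16.

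The promoters of the pair are shown because the values of both genes followed each other over the arrays. The sequences are RefSeq promoters of GRCm38.p6, 5′ to 3′ on the strand of the gene, with matches to the searched motifs in capitals. H2-K1 has 2 RefSeq starts, and its window is counted from the second. The enhancer A letters begin 111 bases before the first start and 125 bases before the second. In both genes, the first capitals are letters of enhancer A (GGGGATTCC), the next letters of the class I interferon box (TTTCACTTC), and the last the Y box CTGATTGG on the opposite strand (CCAATCAG). Motifs were searched on both strands, and no matches shown here overlapped each other.

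H2-D1, chr17:35262914-35263063, plus strand, 180 to 31 bases before the start: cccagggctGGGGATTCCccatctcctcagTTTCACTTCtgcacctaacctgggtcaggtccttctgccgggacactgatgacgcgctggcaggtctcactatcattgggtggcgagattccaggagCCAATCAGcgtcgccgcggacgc
H2-K1, chr17:34000319-34000467, minus strand, 134 bases before to 15 bases after the start: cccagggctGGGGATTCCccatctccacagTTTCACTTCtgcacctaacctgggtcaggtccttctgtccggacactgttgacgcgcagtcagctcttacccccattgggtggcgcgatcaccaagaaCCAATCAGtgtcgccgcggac

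Among 32851 RefSeq promoters of the same length of 300 bases, the enhancer A letters stood in 0.25%, those of the class I interferon box in 0.505% and the Y box in 4.1%. B2m, on chromosome 2 and so outside the MHC, had neither the enhancer A nor the interferon box letters in its window. It held 1 match to the interferon response core GAAANNGAA, which stood in 8.56% of promoters, and its letters are shown for that difference from the heavy chains.

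B2m, chr2:122147537-122147656, plus strand, 150 to 31 bases before the start: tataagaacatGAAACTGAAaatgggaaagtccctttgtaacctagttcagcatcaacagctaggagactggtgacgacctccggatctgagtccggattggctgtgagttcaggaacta

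Psmb8 and Psmb9 replace the standard catalytic subunits in the immunoproteasome. Psmb8 read 2.91 and 2.84 in LM4m, 3.13 and 3.46 in MT4m, 2.84 and 3.25 in LM8m, and 2.75 and 4.42 in MT8m. Both MT4m arrays lay above both LM4m arrays, and MT8m replicate 2 was the highest of the 8. Its averaged genotype difference was 0.48 ± 0.31, and 0.90 ± 0.14 without the library labelled MT8m replicate 1 (adjusted p = 0.0781 by limma). Its dimmer probe set, 1444619_x_at, had a difference of 0.16 ± 0.11. Over the arrays Psmb8 ran with B2m, with an r of 0.95 over 8 arrays and 0.83 over the 7 without MT8m replicate 2. Psmb9 read 2.62 and 2.83 in LM4m, 2.65 and 2.81 in MT4m, 3.16 and 2.95 in LM8m, and 2.43 and 3.50 in MT8m. The LM4m and MT4m values of Psmb9 covered the same range, and its averaged genotype difference was -0.04 ± 0.21, and 0.22 ± 0.11 without the library labelled MT8m replicate 1 (adjusted p = 0.682 by limma).

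Tap1 read 2.57 and 2.27 in LM4m, 2.15 and 2.75 in MT4m, 2.25 and 2.46 in LM8m, and 2.55 and 2.43 in MT8m. It had the highest array in MT4m and not in MT8m replicate 2, and its averaged genotype difference of 0.09 ± 0.15 was within the spread of the replicates (0.06 ± 0.17 without the library labelled MT8m replicate 1). The mean of this probe set, 2.43, lay under the median of all probe set means, and the other 3 probe sets of Tap1 were dimmer still, with averaged differences between -0.01 and 0.02. Tap1 and Psmb9 are neighbours on chromosome 17 that are read in opposite directions from starts 226 bases apart. Their r over the 8 arrays was -0.19. The part of the stretch between them that lies next to Psmb9 is shown, with the Y box in capitals.

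Psmb9, chr17:34187331-34187440, minus strand, 110 to 1 bases before the start: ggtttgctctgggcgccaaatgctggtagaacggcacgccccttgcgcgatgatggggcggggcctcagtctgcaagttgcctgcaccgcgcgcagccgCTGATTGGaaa

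The class II chains had small differences between genotypes. H2-Eb1 read 3.24 and 2.20 in LM4m, 2.37 and 2.52 in MT4m, 2.99 and 3.06 in LM8m, and 2.33 and 2.94 in MT8m. At 8 months both MT arrays lay below both LM arrays, and at 4 months the MT values lay between the LM values. Its averaged genotype difference was -0.33 ± 0.22 (adjusted p = 0.876 by limma), and -0.18 ± 0.24 without the library labelled MT8m replicate 1. H2-Ab1 read 2.42 and 1.88 in LM4m, 2.00 and 1.98 in MT4m, 2.70 and 2.59 in LM8m, and 1.86 and 2.74 in MT8m. MT8m replicate 2 was its highest array and the library labelled MT8m replicate 1 its lowest. The averaged difference of H2-Ab1 was -0.25 ± 0.20, and -0.03 ± 0.14 without that library. Its mean of 2.27 lay under the median of all probe set means, and its dimmer probe sets, 1425477_x_at and 1451721_a_at, had differences of -0.10 ± 0.12 and -0.12 ± 0.09.

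Cd74 read 3.32 and 3.08 in LM4m, 3.14 and 3.04 in MT4m, 3.45 and 3.34 in LM8m, and 2.64 and 3.54 in MT8m. Its genotype difference of -0.21 ± 0.18 became 0.02 ± 0.11 without the library labelled MT8m replicate 1. H2-Aa read 3.83 and 3.34 in LM4m, 3.36 and 3.60 in MT4m, 4.16 and 3.72 in LM8m, and 3.85 and 4.10 in MT8m, with a genotype difference of -0.04 ± 0.15 (0.03 ± 0.17 without that library). A second probe set of H2-Aa, 1435290_x_at, read 3.46 and 2.35 in LM4m, 2.06 and 2.45 in MT4m, 3.84 and 3.52 in LM8m, and 2.13 and 3.39 in MT8m. Its genotype difference was -0.78 ± 0.31 (unadjusted p = 0.0344, adjusted p = 0.853 by limma), so the probe sets of this gene disagreed in size. The remaining probe sets, 1452431_s_at and 1443783_x_at, had differences of -0.35 ± 0.19 and 0.00 ± 0.10.

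The class II genes ran together in part. H2-Ab1 had an r of 0.88 with Cd74 and 0.88 with H2-Eb1 over the 8 arrays, and 0.85 and 0.90 over the 7 without MT8m replicate 2, whereas the r of H2-Aa with the other 3 lay between 0.44 and 0.75. The promoters of H2-Aa and H2-Eb1 are shown because the Y box is a known shared element of class II promoters. The same letters also stood in the windows of H2-D1, H2-K1, Tap1 and Psmb9. In Tap1 and Psmb9 they are 1 and the same site, which begins 11 bases before the start of Psmb9 and lies 222 bases before that of Tap1. The capitals mark the Y box CTGATTGG and, in H2-Aa, the letters TGACGTCA, which stood in 1.79% of all promoters.

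H2-Aa, chr17:34287854-34287933, minus strand, 110 to 31 bases before the start: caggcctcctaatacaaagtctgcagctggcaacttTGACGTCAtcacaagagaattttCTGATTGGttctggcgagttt
H2-Eb1, chr17:34305747-34305836, plus strand, 120 to 31 bases before the start: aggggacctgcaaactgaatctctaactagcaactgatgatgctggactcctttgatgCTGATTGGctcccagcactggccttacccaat

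The Y box began 51 bases before the start of H2-Aa and 62 bases before that of H2-Eb1. A match is a description of the letters and not a measured binding site.

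**Figure D3:**
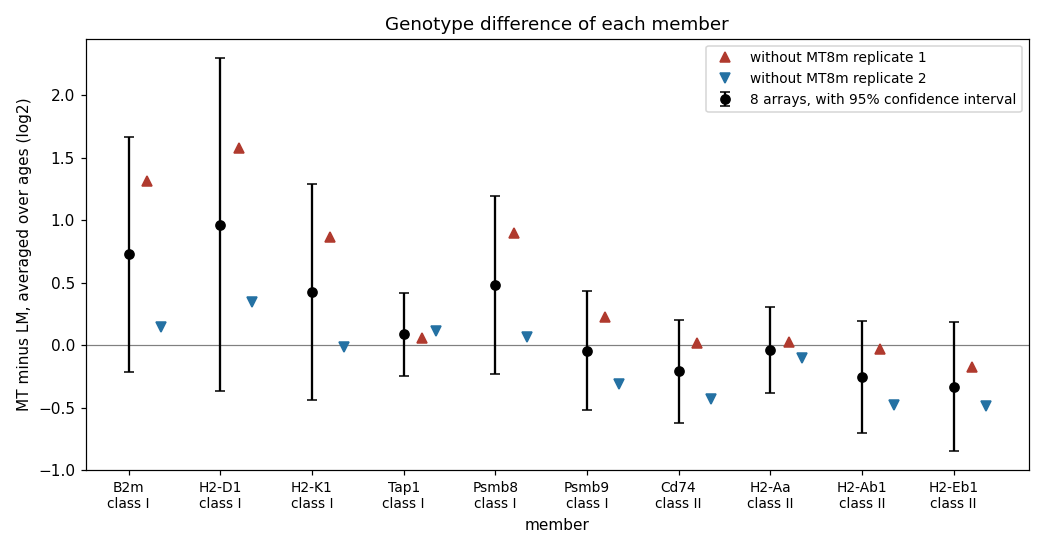
Genotype difference (MT minus LM, averaged over ages, log2, y axis) of each member (x axis) over the 8 arrays with its 95% confidence interval, and the same value without either array of MT8m. All 10 intervals over 8 arrays include 0, and the values of B2m, H2-D1, H2-K1 and Psmb8 lie higher without replicate 1 and lower without replicate 2.

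At each age taken alone, no member passed in the genotype comparison. At 4 months all 6 class I genes had higher means in MT, with a median difference of 0.38, and all 4 class II genes lower means, with a median of -0.14 (44.8% of all genes were above 0). Among the class I genes, Tap1 (0.03 ± 0.21) and Psmb9 (0.005 ± 0.29) were near 0. The class I median fell to 0.03 without MT4m replicate 2 and rose to 0.61 without LM4m replicate 1. The class II median was -0.39 without LM4m replicate 2 and 0.12 without LM4m replicate 1, so its sign depended on the array left out. B2m (0.86 ± 0.58) and Psmb8 (0.42 ± 0.44) had MT arrays wholly above the LM arrays, as did 14.8% of all genes. The smallest adjusted p was 0.944 by limma, and 0 of the 45037 probe sets passed, against 2188 at an unadjusted p under 0.05 (4.86%), 0 of them the brightest probe sets of members. The second probe set of B2m was among them (1.21 ± 0.50, unadjusted p = 0.0399, adjusted p = 0.944 by limma). At 8 months the medians were 0.53 for class I and -0.33 for class II, with 5 of 6 and 1 of 4 genes above 0 (50.6% of all genes). The groups did not overlap for H2-Eb1 alone, lower in MT, as for 13.8% of all genes. Every member had an adjusted p of 1 by limma, 9 probe sets passed (0.02%), and 1526 had an unadjusted p under 0.05 (3.39%), again with 0 members among them. Without the library labelled MT8m replicate 1 the 8-month medians were 1.39 for class I and 0.12 for class II. Without MT8m replicate 2 they were -0.33 and -0.72, so that the sign of both medians at this age depended on which MT8m array was kept.

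With age, 8 minus 4 months, the differences of class II and class I genes had like signs. Averaged over genotypes, all 4 class II genes and 5 of 6 class I genes had higher means at 8 months, with medians of 0.33 and 0.26, against 0.00 over all genes, 48.8% of which were above 0. Without the library labelled MT8m replicate 1 the medians were 0.44 and 0.72, and without MT8m replicate 2 they were 0.14 and 0.02. H2-Aa differed by 0.42 ± 0.15 (unadjusted p = 0.0224, adjusted p = 0.696 by limma) and H2-Ab1 by 0.40 ± 0.20 (adjusted p = 0.784), or by 0.49 ± 0.17 and 0.63 ± 0.14 without the library labelled MT8m replicate 1. H2-Aa was the single member with an unadjusted p under 0.05, higher at 8 months, as were 2.49% of all genes. None passed, and 0 probe sets of the whole array passed in this contrast, with 2920 at an unadjusted p under 0.05 (6.48%). The largest class I age difference, that of H2-D1, was 0.76 ± 0.58. It was 0.14 without MT8m replicate 2 and 1.37 ± 0.48 without replicate 1 of that group.

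In littermates, the LM8m arrays lay wholly above the LM4m arrays for B2m, Psmb9, Cd74 and H2-Ab1, 4 of 10 members, as for 12.3% of all genes. The differences were 0.35 ± 0.58 for B2m, 0.33 ± 0.29 for Psmb9, 0.19 ± 0.25 for Cd74 and 0.50 ± 0.28 for H2-Ab1, and the adjusted p of each member was 1 by limma. For the dimmer probe sets in littermates, the difference was 0.48 ± 0.50 for B2m, and 0.01 ± 0.17 and 0.05 ± 0.13 for H2-Ab1. In mutants, H2-Aa alone did not overlap between ages, higher in MT8m, as for 18.4% of all genes, and its difference was 0.49 ± 0.21 (unadjusted p = 0.0488, adjusted p = 0.87 by limma). Its dimmer probe sets differed there by 0.50 ± 0.44 (1435290_x_at), 0.19 ± 0.26 (1452431_s_at) and -0.10 ± 0.14 (1443783_x_at). Of all genes 2.98% were higher at an unadjusted p under 0.05 in mutants, and H2-Aa was the single member among them. Without the library labelled MT8m replicate 1 its difference in mutants was 0.62 ± 0.27 (unadjusted p = 0.0509). In each genotype taken alone 0 probe sets of the array passed for age, with 1554 at an unadjusted p under 0.05 in littermates (3.45%) and 2567 in mutants (5.7%). These age differences share their arrays with the genotype differences and are not independent of them.

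The interaction of genotype and age passed for 0 of 10 members and 0 of 45037 probe sets, with an adjusted p of 1 by limma for every member, and 1162 probe sets had an unadjusted p under 0.05 (2.58%), no brightest probe set of a member among them. A dimmer probe set of Tap1, 1448177_at, was (-0.54 ± 0.24, unadjusted p = 0.0493, adjusted p = 1 by limma). The interaction values ran from -0.27 ± 0.82 for B2m to 0.44 ± 1.16 for H2-D1. That of B2m turned to 0.90 when the library labelled MT8m replicate 1 was left out (adjusted p = 0.893 by limma). In the moderated F test over the 4 groups the smallest adjusted p of a member was 0.975 by limma, 0 members had an unadjusted p under 0.05, 6 probe sets passed (0.0133%), and 2202 had an unadjusted p under 0.05 (4.89%). The F test passed for 58 probe sets (0.129%) and 1 member, B2m, when the library labelled MT8m replicate 1 was left out.

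The classes were then set against each other on each array. The mean of the class I genes, as a difference from the mean of the 8 arrays, was -0.17 and -0.57 in LM4m, -0.22 and 0.28 in MT4m, 0.05 and -0.19 in LM8m, and -0.35 and 1.17 in MT8m. The mean of the class II genes was 0.22 and -0.35 in LM4m, -0.26 and -0.19 in MT4m, 0.35 and 0.20 in LM8m, and -0.31 and 0.35 in MT8m. On MT8m replicate 2 both classes were high, and on the library labelled MT8m replicate 1 both were low.

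Class II minus class I was 0.39 and 0.22 in LM4m, -0.04 and -0.48 in MT4m, 0.30 and 0.39 in LM8m, and 0.04 and -0.82 in MT8m. All 4 MT arrays lay below all 4 LM arrays, the library labelled MT8m replicate 1 included. Of single genes 2.42% were ordered so, and no such share was counted for differences of class means. The genes were not scaled, so those with wide ranges, such as H2-D1 (3.51), weighed more than the class II genes (0.82 to 1.04). The averaged genotype difference of class II minus class I was -0.65, against a pooled SD of 0.35 between the arrays of a group, and the age difference was -0.05. No test was made, since the members were chosen with earlier results of these data known. Leaving out 1 array at a time gave genotype differences between -0.86 (without the library labelled MT8m replicate 1) and -0.43 (without MT8m replicate 2). The mean of all probe sets of each gene in place of the brightest gave -0.55.

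**Figure D4:**
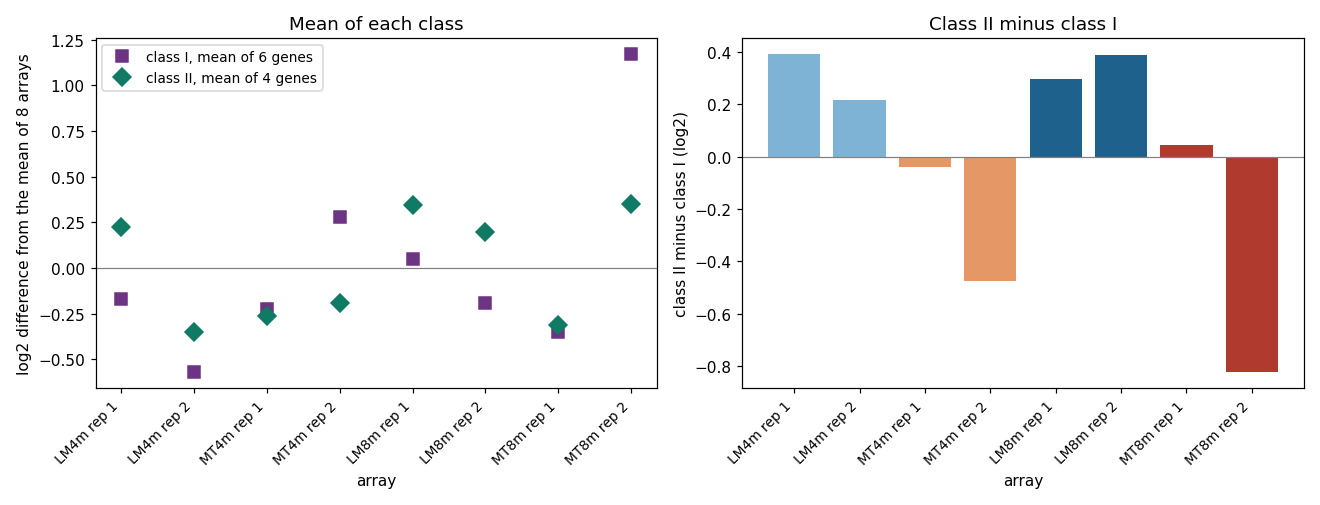
Left, mean log2 difference from the mean of the 8 arrays (y axis) of the 6 class I and the 4 class II genes on each array (x axis). Right, class II minus class I on the same arrays, with bars coloured by group. The 4 LM bars stand between 0.22 and 0.39 and the 4 MT bars between -0.82 and 0.04.

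Markers of other cell types were set beside the members, by the mean of each marker list as a difference from the mean of the 8 arrays. In bulk tissue, fewer cells of a type and less RNA per cell cannot be told apart. The 7 microglial markers lay between -0.55 and -0.16 on the LM arrays, at 0.52 and 0.36 in MT4m, at -0.34 on the library labelled MT8m replicate 1 and at 1.10 on MT8m replicate 2. The 7 markers of plaque-associated microglia lay between -1.08 and -0.56 on the LM arrays, at 1.30 and 0.70 in MT4m, and at -0.72 and 1.97 in MT8m. B2m followed both lists, with an r of 0.94 with the microglial mean over 8 arrays and 0.85 over the 7 without MT8m replicate 2. The 6 astrocyte markers lay between -0.21 and -0.07 on the LM arrays, at 0.18 and 0.01 in MT4m, and at -0.35 and 0.80 in MT8m, and their mean had an r with B2m of 0.96 over 8 arrays and 0.85 over those 7, and with Psmb8 of 0.91 and 0.55. H2-D1 had an r of 0.64 with the microglial mean over 8 arrays and 0.10 over those 7, and H2-Ab1 had 0.14 and -0.40. With the mean of 6 endothelial markers the r of H2-D1 was 0.71 over 8 arrays and 0.76 over those 7. For the other class I genes it was 0.65 and 0.69 (Tap1), 0.53 and 0.47 (H2-K1), 0.28 and -0.07 (Psmb8), 0.21 and -0.17 (B2m), and 0.06 and -0.32 (Psmb9). Of the markers, 7 of 7 microglial and 7 of 7 plaque-microglial markers had higher means in MT over both ages. The part of microglia and of astrocytes in the B2m difference was not tested, nor was that of endothelium in the class I values.

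**Figure D5:**
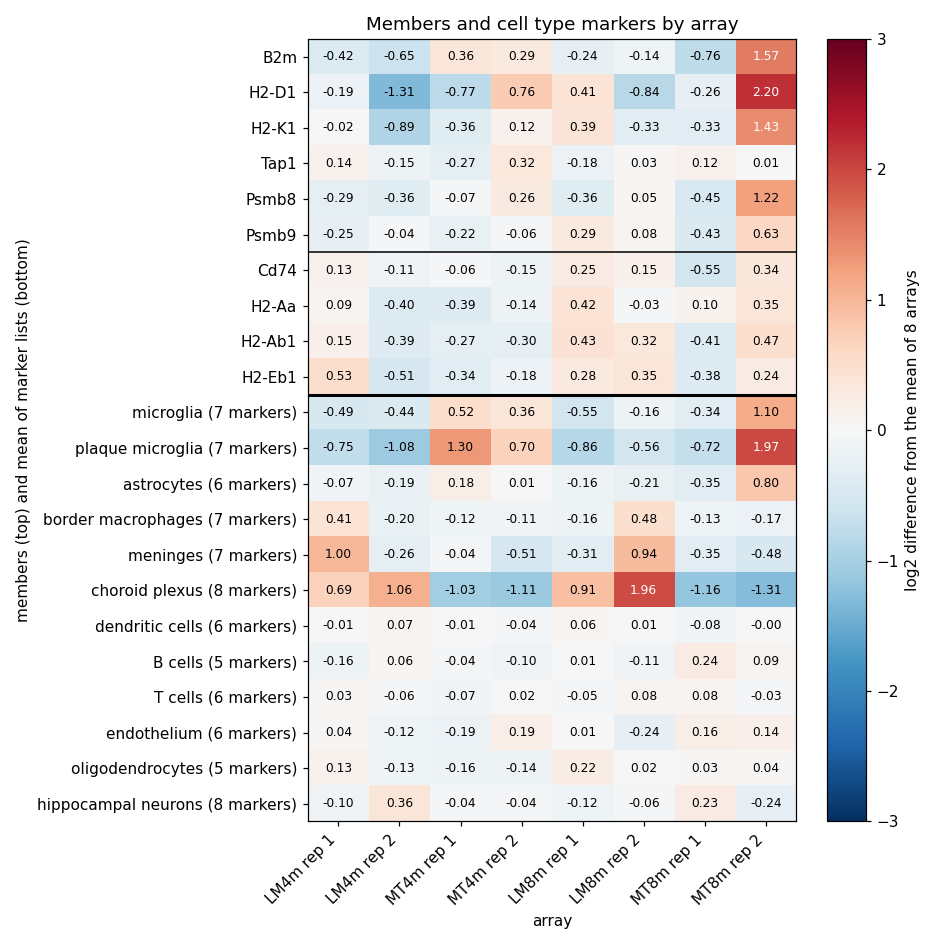
Log2 difference from the mean of the 8 arrays, printed in each cell, for the 10 members (rows above the thick line, class I first) and the mean of 12 marker lists (rows below it) on the 8 arrays (columns). B2m and the microglial lists are above 0 on the MT4m arrays and MT8m replicate 2 only, and the choroid plexus list is above 0 on the LM arrays only.

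Marker lists of the borders and of oligodendrocytes were set beside class II. The 7 meningeal markers stood at 1.00 in LM4m replicate 1 and 0.94 in LM8m replicate 2 and between -0.51 and -0.04 elsewhere, and the 7 border macrophage markers at 0.41 and 0.48 on those 2 arrays and between -0.20 and -0.11 elsewhere. These 2 arrays were also the highest for H2-Eb1, at 3.24 and 3.06. The r of H2-Eb1 was 0.67 with the border macrophage mean and 0.61 with the meningeal mean over the 8 arrays. Over the 7 without MT8m replicate 2 it was 0.78 and 0.74. LM8m replicate 1 stood apart, with H2-Eb1 at 2.99 and both border lists below 0. With the border macrophage mean the r was 0.26 for Cd74, 0.05 for H2-Aa and 0.35 for H2-Ab1, and 0.45, 0.19 and 0.57 over those 7. With the mean of 5 oligodendrocyte markers, which stayed between -0.16 and 0.22, it was 0.43 for Cd74, 0.87 for H2-Aa, 0.72 for H2-Ab1 and 0.75 for H2-Eb1. Over those 7 these values were 0.43, 0.93, 0.77 and 0.75. The 8 choroid plexus markers lay between 0.69 and 1.96 on the LM arrays and between -1.31 and -1.03 on the MT arrays, and 7 of 8 passed as lower in MT over both ages. The choroid plexus list and class II minus class I each separated the labelled genotypes on all 8 arrays, and a link between them was not tested. The r of the choroid plexus mean over the 8 arrays ran from -0.02 (H2-Aa) to 0.41 (H2-Eb1) for class II genes. For class I genes it ran from -0.54 (H2-D1) to 0.06 (Psmb9). The part of border tissue and of oligodendrocytes in the class II values was not tested.

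Markers of lymphocytes and dendritic cells read under 4 on every array, apart from Ighm. The means of 6 T cell, 5 B cell and 6 dendritic cell markers stayed between -0.16 and 0.24 on every array, and none of these markers passed in any contrast. Cd3e, the epsilon chain of the T cell receptor complex, read between 2.66 and 3.23, and Cd79a, a chain of the B cell receptor complex, between 1.73 and 2.09. Ighm, the heavy chain of immunoglobulin M, ran from 4.94 in MT4m replicate 2 to 6.95 on the library labelled MT8m replicate 1, with 6.05 in MT8m replicate 2. The mean of 8 markers of hippocampal neurons stayed between -0.24 and 0.36 of its own mean on every array. These deviations compare the arrays with each other only, so they cannot check the tissue label. The r of the neuron mean with the members over the 8 arrays ran from -0.79 for H2-K1 to -0.09 for Tap1. It was -0.76 for Cd74, -0.79 for H2-Ab1 and -0.77 for H2-Eb1, and -0.68, -0.72 and -0.76 over the 7 arrays without MT8m replicate 2. The part of neurons in the member values was not tested.

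Other genes of the 2 pathways were taken from lists. Of 12 measured genes of class I loading and processing, 0 passed in any contrast, 6 had higher means in MT, and the median genotype difference was 0.02. The largest genotype difference in that list was that of the chaperone Hspa5 (-0.31 ± 0.12), and with age Hspa5 (-0.61 ± 0.12, adjusted p = 0.459) and calreticulin, Calr (-0.51 ± 0.11, adjusted p = 0.512), were lower and the second pump subunit Tap2 higher (0.29 ± 0.10, adjusted p = 0.673), all by limma. Calr read 9.53 and 9.37 in LM4m, 9.35 and 9.23 in MT4m, 9.03 and 8.95 in LM8m, and 8.92 and 8.56 in MT8m, so that the 4 arrays of 8 months lay below the 4 of 4 months. Hspa5 read 9.71 and 9.79 in LM4m, 9.43 and 9.32 in MT4m, 8.86 and 9.28 in LM8m, and 8.98 and 8.68 in MT8m, with the same order of ages. Both genes were picked for the size of their age differences in the list. The share of all genes that separated so by age was not counted. Calr and Hspa5 are general chaperones of the endoplasmic reticulum as well as helpers of class I assembly. Of 5 measured non-classical class I genes, 3 had a difference above 0 and 2 below, and the largest was that of Fcgrt, the Fc receptor heavy chain that pairs with B2m, at -0.36 ± 0.23. The list also named H2-Ke6, a dehydrogenase gene of the MHC region that is not a class I gene, at -0.13 ± 0.16.

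Of 12 measured genes of class II loading and processing, 9 had higher means in MT, with a median of 0.22. All 4 class II members had lower means. The list also held H2-Ea and H2-Eb2, which are class II chain genes themselves, and both had higher means in MT. Without the library labelled MT8m replicate 1 their differences were 0.24 and 0.30. H2-Eb2 ran from 1.94 to 2.82, and its median of 2.27 lay under the median of all probe set means of 2.47. Neither gene passed, so whether class II chain genes share a direction was not settled. Cathepsin S (Ctss), which trims the invariant chain, read 7.82 and 7.64 in LM4m, 9.44 and 9.36 in MT4m, 7.72 and 8.23 in LM8m, and 8.16 and 10.48 in MT8m. Its averaged difference was 1.51 ± 0.42 (unadjusted p = 0.00643, adjusted p = 0.757 by limma), and 2.09 ± 0.14 without the library labelled MT8m replicate 1 (adjusted p = 0.00416). Legumain (Lgmn), another endosomal protease, differed by 0.41 ± 0.23, and by 0.72 ± 0.10 without that array (adjusted p = 0.0482). Cathepsin L (Ctsl) differed by 0.37 ± 0.29, and by 0.72 ± 0.18 without it (adjusted p = 0.319). No gene of this list passed over the 8 arrays.

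Of 17 measured regulators and interferon gamma signalling genes, 7 had higher means in MT and the median was -0.02. Irf8, a transcription factor of microglia and other myeloid cells, read 2.70 and 2.31 in LM4m, 3.24 and 3.27 in MT4m, 2.46 and 2.40 in LM8m, and 1.96 and 4.84 in MT8m, with the highest 3 arrays and the lowest array of B2m. Its averaged difference was 0.86 ± 0.51, and 1.58 ± 0.12 without the library labelled MT8m replicate 1 (adjusted p = 0.00561 by limma). Ciita, the master regulator of class II transcription, stayed between 1.60 and 2.08 on all arrays, and Nlrc5, its counterpart for class I, between 1.75 and 2.12. Both lay under the median of all probe set means of 2.47, where an unchanged level and an undetected transcript cannot be told apart. With age, the interferon gamma receptor chain Ifngr2 differed by 0.83 ± 0.23 (adjusted p = 0.629). Of 11 co-stimulatory and T cell co-receptor genes, 9 had higher means in MT, with a median of 0.06, the largest being Cd86, a ligand of CD28, at 0.49 ± 0.20 (adjusted p = 0.853).

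Outside members and lists, the genes whose array pattern was most like the mean of the class I genes were Meiob (r = 0.97), Fgf6 (0.97), Tnfaip8l2 (0.97), 4833438C02Rik (0.97) and Rnf213 (0.95), over 8 arrays that share their groups and the high value of MT8m replicate 2. Meiob, Fgf6 and 4833438C02Rik stayed under 2.04 on all arrays, where differences are small. Rnf213 read 4.34 and 3.74 in LM4m, 4.10 and 4.47 in MT4m, 4.40 and 4.16 in LM8m, and 3.97 and 4.93 in MT8m, and kept an r of 0.94 without MT8m replicate 2. The pattern most like the class II mean was that of Prss29 (r = 0.96), Szrd1 (0.95), Tspan4 (0.94), Plxnb2 (0.94) and Gbp2 (0.94). Gbp2, a guanylate-binding protein induced by interferon, read 2.88 and 2.26 in LM4m, 2.52 and 2.67 in MT4m, 3.03 and 2.88 in LM8m, and 2.20 and 3.29 in MT8m. These correlations were picked as the highest of 18193 and carry no test.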

How the data were processed

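Hippocampal RNA of 8 samples was hybridised to 1 array each. Log2 expression values, made by the authors with RMA in affy, were deposited for 45101 probe sets, of which 64 controls were left out here. The version of affy is not given in the sources used here, the offset of the log2 scale is unknown, and scanner files were not analysed here. The number of arrays limits the precision.

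Probe sets were named from the platform annotation, with 1 symbol for 34945 of the 45037 tested, several for 932 and none for 9160, and symbols were updated by Entrez identifier in RefSeq (GRCm38.p6, 34741 matched). Of the genes in the lists used here, 13 were not named by that annotation and were not analysed here. A further 3 probe sets, annotated to a member and to other genes, were kept apart. The 4 group means were estimated from all 8 arrays by lmFit and eBayes of limma 3.58.1 (R 4.3.3, 4 residual degrees of freedom), with contrasts for genotype at each age and averaged, age in each genotype and averaged, and their interaction, and a moderated F test. Two-sided p-values of limma were adjusted by Benjamini-Hochberg over 45037 probe sets, with the threshold at 0.05. The fit was tested on simulated data.

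The members, gene lists and tests were chosen with earlier results of these data known. Named were all 10 members, from each pathway list the 3 largest differences by genotype and the 3 largest by age, the label checks Thy1, Cst7, Gfap and Ttr, and the 5 genes most like each class mean. Further genes were named after their values had been seen, Ciita, Nlrc5, Cd3e, Cd79a, H2-Ea and H2-Eb2 for their role and Ighm for its level. Not every gene of the rule is described. The alternatives were cyclic loess, leaving out dim probe sets, a robust prior with trend, 1 probe set per gene, the mean of all probe sets of a member, fits of the compared groups alone, a block for the title numbers of samples, and leaving out each array. A crossed pairing of the mutant numbers was added after seeing the data. RefSeq promoters (250 bases before to 50 after the start) were used for 8 of 10 members. H2-Ab1 and Cd74 are not shown.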

Additional observations from a re-analysis of the deposited data

How the results depend on the processing

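Of 1016 values of single members under 16 other settings, 933 had the sign reported above and 2 passed, both of B2m without the library labelled MT8m replicate 1. The number of members passing was 0 in 113 of 116 counts under these settings. With 1 array left out at a time it ranged from 0 to 1 for the genotype difference at 8 months, for the averaged genotype difference and for the F test, with 1 only without the library labelled MT8m replicate 1, and was 0 for the other contrasts. That fit keeps MT8m replicate 2 as a lone array, assumed to vary like the other groups. The filter on dim probe sets left 8 of 10 members. Class II minus class I by genotype ranged from -0.86 to -0.43 with 1 array left out, was -0.65 with cyclic loess and -0.55 with the mean of all probe sets. Its age difference ranged from -0.26 to 0.17 with 1 array left out.

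Arrays of the same title number shared deviations from their group means with r = 0.24 in littermates and -0.17 in mutants, so the numbers were not taken to pair the samples. With that number as a replicate block, 0 members and 0 probe sets passed for age in littermates, in mutants, averaged, or in the interaction, as without the block. With the mutant numbers crossed, 0 members and 3, 2, 3 and 1 probe sets passed. No block was possible for the genotype contrasts, since LM and MT share no numbers. Dim probe sets such as those of Tap1 and H2-Ab1 limit what could be seen, and how far their differences are compressed was not measured.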
